A study of Mus musculus with 12 samples.

Results

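The leukocyte integrin subunits are 7 genes, *Itgb2*, *Itgal*, *Itgam*, *Itgax*, *Itgb7*, *Itga4* and *Itgae*, and were followed in RNA-seq of glomerular endothelial cells (GEC) sorted by the brightness of a tdTomato (tdT) reporter. They were found by gene symbol in the table of counts of each subpopulation. The dimtdT table lists 17811 genes and holds all 7 symbols under 8 identifiers, since *Itgam* has a second one. The brighttdT table lists 17521 genes and holds 5 of the symbols, and *Itgam* and *Itgax* have no row there. Every gene with a row in the brighttdT table had at least 8 counts summed over its 6 libraries.

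The mice were C57BL/6, 4 months of age, and carried a Cre recombinase under the *Tek* promoter with a tdT reporter that Cre switches on. This promoter drives Cre in endothelial cells and is also known to be active in precursors of blood cells. Wild type (WT) mice were compared with Alport syndrome (AS) mice, which are Col4a5 -/-, *Col4a5* being the gene of a type IV collagen chain of the glomerular basement membrane. Each of the 3 WT and 3 AS mice gave a library of dimtdT and a library of brighttdT GEC, so that 12 libraries form 4 groups of 3.

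Integrins are pairs of an alpha and a beta chain in the cell membrane through which a cell holds on to other cells and to matrix. The chain of *Itgb2* (CD18) pairs with those of *Itgal* (CD11a, making LFA-1), *Itgam* (CD11b, making Mac-1) and *Itgax* (CD11c), and is known from white blood cells, which use it to adhere to ICAM proteins on endothelium and to take up complement-coated particles. The chain of *Itga4* pairs with that of *Itgb7* or of *Itgb1* and binds MAdCAM-1, VCAM-1 and fibronectin, and the chain of *Itgae* (CD103) pairs with that of *Itgb7* and binds E-cadherin.

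The counts on genes summed to between 11440169 and 13923267 per dimtdT library and between 13674045 and 15074909 per brighttdT library. *Col4a5* had 439 to 877 counts in the WT-dimtdT and 17 to 51 in the AS-dimtdT libraries, but 69 to 158 in the WT-brighttdT and 43 to 104 in the AS-brighttdT libraries, so that the genotypes overlapped in the brighttdT cells. The sort was labelled endothelial, and 14 of 14 endothelial markers had a row in both tables. Their summed level was 11996 to 18270 counts per M counts of a library (CPM, where M is the SI prefix mega) in the brighttdT libraries, but 696 to 1434 CPM in the WT-dimtdT and 236 to 321 CPM in the AS-dimtdT libraries. The 12 markers of all leukocytes, *Ptprc* (CD45) among them, went the other way, with 7868 to 13664 CPM in the dimtdT and 82.1 to 172 CPM in the brighttdT libraries. In RNA of sorted cells, fewer cells of a type and less RNA per cell cannot be told apart.

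In GRCm38 with Gencode M21, *Itgb2* lies at chr10:77530252-77565708 (plus strand), *Itgb7* at chr15:102215995-102231944 (minus strand), *Itga4* at chr2:79255426-79333123 (plus strand) and *Itgae* at chr11:73090583-73147446 (plus strand). The 3 partners of *Itgb2* lie on chromosome 7 on the plus strand, *Itgal* at chr7:127296260-127335138, *Itgam* at chr7:128062640-128118491 and *Itgax* at chr7:128129547-128150657. The second identifier spans chr7:128062683-128128160 and ends before *Itgax* starts. All are protein-coding. *Itga4* shares 1124 exon bases with *Cerkl* on the opposite strand, and as the strand counted is not named, how reads in these bases were counted is not known. *Itgad*, a further alpha partner of *Itgb2*, next to *Itgax*, had 14, 2 and 0 counts in the WT-dimtdT and 53, 9 and 10 in the AS-dimtdT libraries.

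Promoter sequence was at hand for 4 of the 7 in RefSeq's GRCm38.p6 annotation. The 250 bases before the start of each gene were searched on both strands for GAGGAA (the core that the myeloid and lymphoid factor PU.1 binds), TGTGGT (the core of RUNX factors) and GGGCGG (the GC box of SP factors). The windows of 2 of the 4 held a match and are shown to let the positions be seen, 5′ to 3′ on the strand of the gene with matches in capitals, *Itgam* at chr7:128062390-128062639 and *Itga4* at chr2:79255176-79255425, both on the plus strand.
Itgam: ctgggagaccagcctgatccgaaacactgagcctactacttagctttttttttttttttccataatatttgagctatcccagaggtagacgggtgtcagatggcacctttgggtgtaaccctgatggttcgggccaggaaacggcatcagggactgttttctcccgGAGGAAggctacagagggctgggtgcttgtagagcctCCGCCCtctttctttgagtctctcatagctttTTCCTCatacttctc
Itga4: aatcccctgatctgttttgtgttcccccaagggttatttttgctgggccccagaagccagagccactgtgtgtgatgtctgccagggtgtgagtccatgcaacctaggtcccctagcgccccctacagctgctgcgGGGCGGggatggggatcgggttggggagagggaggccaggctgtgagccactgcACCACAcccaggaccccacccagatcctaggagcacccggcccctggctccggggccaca
*Itgam* held the PU.1 core at 84 and 15 bases before the start, the second on the other strand, and the GC box at 47 bases, also on the other strand. *Itga4* held the GC box at 114 bases and the RUNX core, on the other strand, at 60 bases. The windows of *Itgax* and *Itgb7* held none of the 3 motifs. Of 32851 promoter windows of this length, 23.3% held the PU.1 core, 14.0% the RUNX core and 32.7% the GC box, and a match is no proof of a site.

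The first comparison asks how the subpopulations of the same mice differ, and *Itgb2*, *Itgal*, *Itgb7* and *Itga4* were lower in the brighttdT cells of both genotypes. *Itgb2*, the shared beta chain of LFA-1 and Mac-1, had 2606, 3475 and 4457 counts in the WT-dimtdT and 7204, 5807 and 5812 in the AS-dimtdT libraries. The WT-brighttdT libraries held 12, 11 and 36 counts and the AS-brighttdT libraries 41, 67 and 27. The highest brighttdT library thus lay far below the lowest dimtdT library. With libraries scaled by edgeR's TMM method, *Itgb2* went from 298 ± 77.8 CPM (SD, n = 3) in the WT-dimtdT to 1.34 ± 0.939 CPM (SD, n = 3) in the WT-brighttdT cells. This is a log2 fold change of -7.78 (standard error, SE, 0.47, adjusted p = 7.86e-06), or 220-fold lower, and it was -8.52 without the WT-brighttdT library of replicate 3. Here and in what follows p comes from the quasi-likelihood test of edgeR and is adjusted by Benjamini and Hochberg over all genes tested. The SE is derived from the same test, as the size of the log2 fold change over the square root of its F statistic. In AS the log2 fold change of brighttdT over dimtdT was -7.28 (SE 0.28, edgeR adjusted p = 3.54e-08), a 155-fold difference.

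*Itgal*, the alpha chain of LFA-1 and the partner of *Itgb2* on lymphocytes and most other white blood cells, had the most counts of the 7 in the dimtdT libraries. The WT-dimtdT libraries held 8800, 11079 and 16301 counts and the AS-dimtdT libraries 20326, 13983 and 15083. The WT-brighttdT libraries held 48, 30 and 266 counts and the AS-brighttdT libraries 25, 62 and 64, so that the third WT library stood above the other five. The log2 fold change of brighttdT over dimtdT was -7.04 in WT (SE 0.77, edgeR adjusted p = 0.000232) and -8.50 in AS (SE 0.32, edgeR adjusted p = 3.54e-08). Without the WT-brighttdT library of replicate 3 the WT value was -8.55. In that library 3 genes of white blood cells, looked up after the *Itgal* count had been seen, were also high. The neutrophil protein gene *S100a9* had 77 counts there and 3 to 10 in the other brighttdT libraries, the receptor gene *Csf3r* had 56 against 7 to 20, and the adaptor gene *Lcp2* had 201 against 11 to 54. Not all genes of white blood cells were high in it. *Ptprc* had 44 counts, within the 28 to 124 of the other brighttdT libraries. Only 4 of the 12 markers of T and NK cells have a row in the brighttdT table. These summed to 14.2 CPM, the lowest of the 6 brighttdT libraries but close to the next at 14.5 CPM. The B cell markers summed to 5.80 CPM, within the 2.71 to 7.16 CPM of the other brighttdT libraries. Its counts of *Itgb7* and *Itga4* were also the lowest of the 6, at 39 and 68. The part of these genes in the *Itgal* value was not tested.

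The other beta chain, *Itgb7*, and *Itga4*, which pairs with it, were lower in the brighttdT cells by smaller folds. *Itgb7* had 1226, 977 and 878 counts in the WT-dimtdT and 2182, 1893 and 2372 in the AS-dimtdT libraries, and in the brighttdT libraries 63, 75 and 39 in WT and 67, 67 and 70 in AS. Its log2 fold change of brighttdT over dimtdT was -4.42 in WT (SE 0.37, edgeR adjusted p = 4.92e-05) and -5.13 in AS (SE 0.21, edgeR adjusted p = 4.66e-08). *Itga4* had 1194, 1439 and 1802 counts in the WT-dimtdT and 3046, 2413 and 3073 in the AS-dimtdT libraries, and in the brighttdT libraries 111, 102 and 68 in WT and 150, 111 and 186 in AS. Its log2 fold change was -4.29 in WT (SE 0.34, edgeR adjusted p = 3.45e-05) and -4.40 in AS (SE 0.25, edgeR adjusted p = 2.78e-07), or 19.5-fold and 21.1-fold lower. Neither gene's brighttdT libraries overlapped with its dimtdT libraries.

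*Itgae*, the alpha chain of CD103, known on T cells in epithelia and on a class of dendritic cells, was close to the limit of counting. The WT-dimtdT libraries held 23, 37 and 4 counts and the AS-dimtdT libraries 37, 35 and 55. The brighttdT libraries held 1, 1 and 7 (WT) and 2, 4 and 9 (AS). It passed the filter on low counts in AS only, through the dimtdT libraries in which it is high, so that a lower value in the brighttdT cells was favoured by the filter. Its fitted log2 fold change of -3.20 in AS is therefore given as a description, with no test. In WT it had no fit, and its WT groups overlapped, with 4 counts in a dimtdT and 7 in a brighttdT library.

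In WT 4 of 4 subunits tested were lower in the brighttdT cells, where 11.5% of all 14247 genes tested were lower, and the groups of each did not overlap, as for 19.7% of all genes. In AS the same 4 were lower, against 26.5% of all 14052 genes, and again no groups overlapped, as for 30.5% of all genes. *Itgae* is left out of this count, for the filter described above. For *Itgam* and *Itgax* no fold can be given, as they have no row in the brighttdT table, which lists no gene under 8 counts, and their brighttdT counts are not known.

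**Figure D1:**
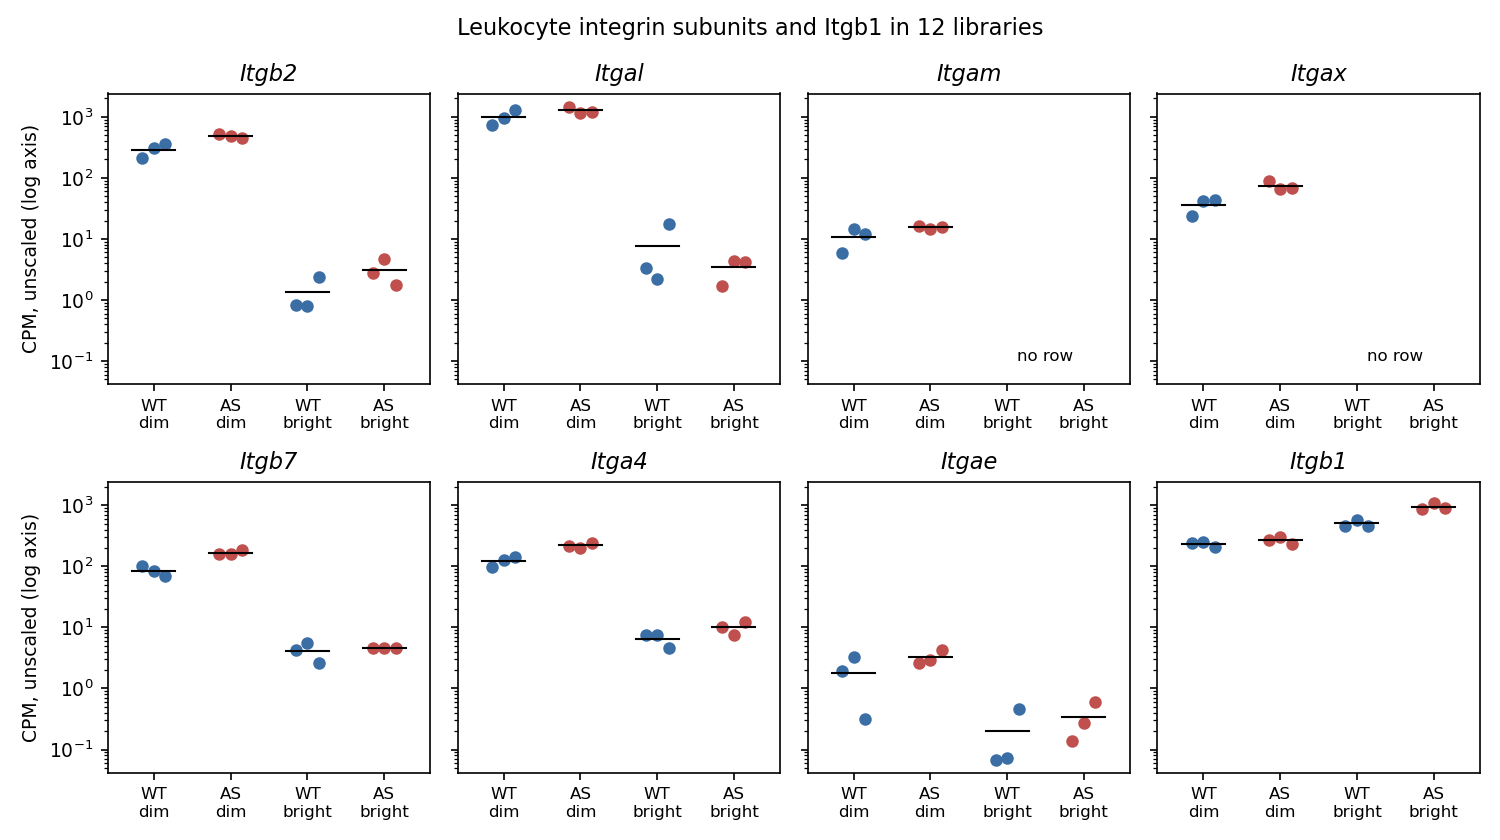
Each dot is a library, in CPM without TMM scaling on a log axis, for the 7 leukocyte integrin subunits and *Itgb1* in the 4 groups, with a bar at the group mean. *Itgb2*, *Itgal*, *Itgb7* and *Itga4* lie higher in every dimtdT than in any brighttdT library, *Itgae* overlaps, *Itgam* and *Itgax* have no row in the brighttdT table, and *Itgb1* lies higher in the brighttdT libraries.

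*Itgb1*, whose chain is the other partner of that of *Itga4* and occurs in most cell types, was measured for comparison. It had 2939, 2908 and 2603 counts in the WT-dimtdT and 6739, 7964 and 6985 in the WT-brighttdT libraries. Its log2 fold change of brighttdT over dimtdT was 1.05 in WT (SE 0.21, edgeR adjusted p = 0.00652) and 1.85 in AS (SE 0.17, edgeR adjusted p = 1.04e-05), so that *Itga4* and this partner moved in opposite directions. *Ptprc*, the phosphatase CD45 of all leukocytes, had log2 fold changes of -8.14 in WT (SE 0.40, edgeR adjusted p = 2.88e-06) and -8.18 in AS (SE 0.39, edgeR adjusted p = 8.83e-08).

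**Figure D2:**
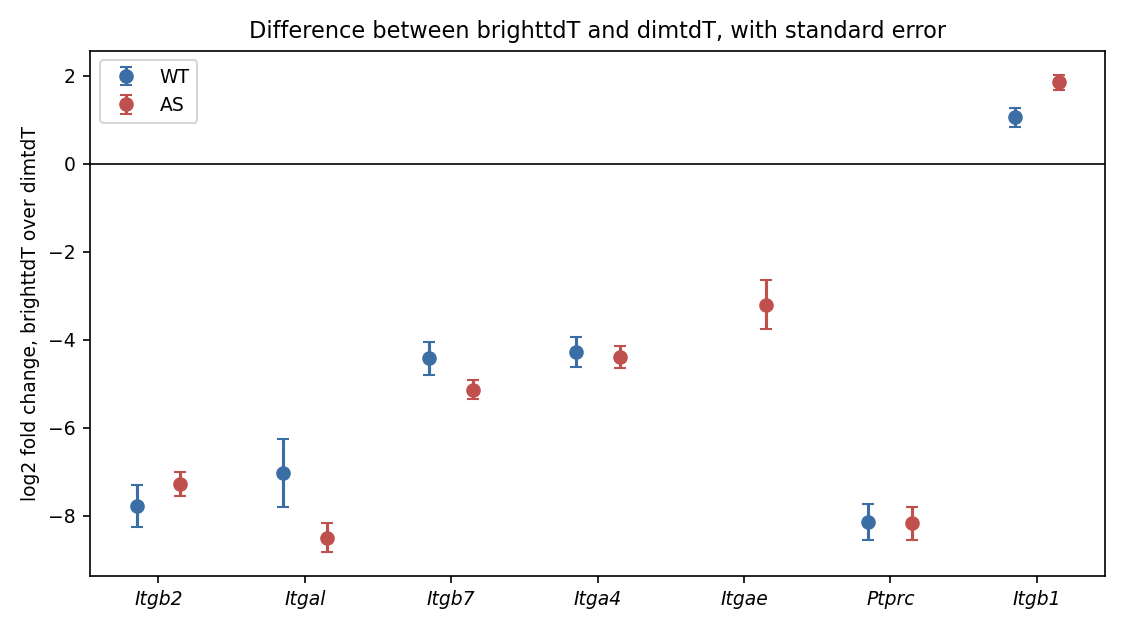
Log2 fold changes of brighttdT over dimtdT in WT and AS, with bars of 1 standard error, for the 5 subunits with a row in both tables, *Ptprc* and *Itgb1*. *Itgb2* and *Itgal* lie near *Ptprc* at -7.04 to -8.50, *Itgb7* and *Itga4* lie at -4.29 to -5.13, *Itgae* was fitted in AS only, where the filter favours a lower value, and *Itgb1* lies above 0.

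To compare the subunits with each other without a scaling between libraries, the counts of each were divided by the *Ptprc* counts of the same library, a measure chosen after the data had been seen. In the dimtdT libraries *Itgb7* had 6.60 to 15.4 counts per 100 counts of *Ptprc*, and in the brighttdT libraries 54.0 to 268. *Itga4* had 13.5 to 17.0 per 100 in the dimtdT and 89.5 to 489 in the brighttdT libraries. Both ratios were thus higher in the brighttdT cells of 6 of 6 mice, by 11.2-fold for *Itgb7* and 15.1-fold for *Itga4* in the geometric mean. The median log2 fold change over all genes was -0.04 in WT and 0.02 in AS, far above that of *Ptprc*. A higher ratio therefore means only that a gene fell less than *Ptprc* or did not fall. The share of all genes with a higher ratio was not computed. *Itgae* was also higher relative to *Ptprc* in 6 of 6 mice, on brighttdT counts of 1 to 9. For *Itgb2* the ratio was 32.1 to 37.3 in the dimtdT and 18.5 to 93.2 in the brighttdT libraries, and for *Itgal* 83.2 to 123 in the dimtdT and up to 605 in the brighttdT libraries, with the highest value from the WT-brighttdT library of replicate 3.

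In an exact two-sided permutation test over the 6 mice, in which the sign of each mouse's difference was flipped, *Itgb7*, *Itga4* and *Itgae* each gave p = 0.0312, the smallest this design allows. Adjusted over the 5 subunits, p was 0.0521 for each of the 3, above the threshold of 0.05, so that these differences did not pass. *Itgb2*, 1.52-fold higher in the brighttdT cells in the geometric mean and higher in 5 of 6 mice, gave an adjusted exact permutation p of 0.195, and *Itgal* of 0.781. With the geometric mean of the 12 leukocyte markers in place of *Ptprc*, *Itgb7* was 3.65-fold and *Itga4* 4.93-fold higher in the brighttdT cells, *Itgb2* was 2.01-fold lower in 6 of 6 mice, and the adjusted exact permutation p was 0.0391 for each of these and for *Itgae*. The direction of *Itgb2* thus turned with the denominator. *Itgal* was 2.74-fold lower relative to these markers, at an adjusted exact permutation p of 0.0625. The brighttdT ratios rest on 28 to 124 counts of *Ptprc* per library, and those of *Itgae* on 1 to 9 of its own. The 12 leukocyte markers fell by median log2 fold changes of -6.99 in WT and -7.19 in AS. A gene that fell less than the denominator rises relative to it, and the share of all genes with such a p was not computed. These p values therefore show no trait particular to the subunits.

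**Figure D3:**
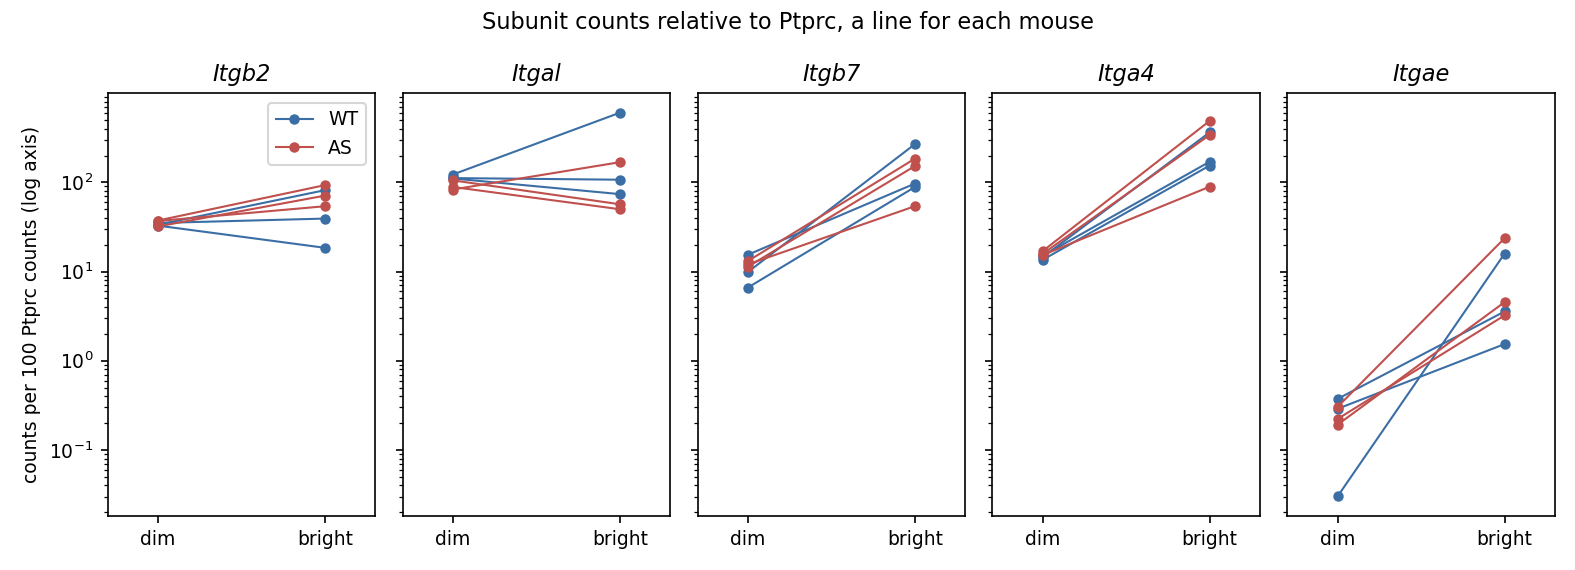
Counts of each of 5 subunits per 100 counts of *Ptprc* on a log axis, with a line from the dimtdT to the brighttdT library of each of the 6 mice. The lines of *Itgb7*, *Itga4* and *Itgae* rise in 6 of 6 mice, and those of *Itgb2* and *Itgal* in 5 and 2. As *Ptprc* is much lower in the brighttdT cells, a rising line means only a smaller fall than that of *Ptprc*.

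The second comparison asks how the AS mice differ from the WT mice in the dimtdT cells. *Itgb7* and *Itga4* were higher in AS and passed the threshold narrowly, and the other 6 identifiers had higher means in AS and did not pass. *Itgb7* went from 88.2 ± 18.6 CPM (SD, n = 3) to 163 ± 19.2 CPM (SD, n = 3), a log2 fold change of 0.89 (SE 0.21, edgeR adjusted p = 0.0431), or 1.85-fold. *Itga4* went from 126 ± 22.3 CPM (SD, n = 3) to 215 ± 22.6 CPM (SD, n = 3), a log2 fold change of 0.77 (SE 0.20, edgeR adjusted p = 0.0491), or 1.71-fold. Every AS library lay above every WT library for both genes. These 2 calls depend on the form of the test, because edgeR's version 3 fit of the same model, which was run first, gave adjusted p = 0.0602 for *Itgb7* and 0.0660 for *Itga4*, and no subunit passed. Over 18 alternatives *Itgb7* passed in 7 and *Itga4* in 6, at adjusted p of 0.00628 to 0.891 and 0.0121 to 0.987 (edgeR or DESeq2), and both stayed above 0 in each.

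*Itgax*, the alpha chain CD11c known on dendritic cells and on many macrophages, had 283, 476 and 538 counts in the WT-dimtdT and 1226, 782 and 871 in the AS-dimtdT libraries. Its log2 fold change was 0.97 (SE 0.27, edgeR adjusted p = 0.0635), with no overlap of the groups. *Itgb2* went from 299 ± 69.9 CPM to 474 ± 21.7 CPM (SD, n = 3 each), which is 0.67 on the log2 scale (SE 0.20, edgeR adjusted p = 0.0768), also with no overlap. Without the WT-dimtdT library of replicate 3, *Itgb2* gave adjusted p = 0.0281 and *Itgax* 0.0471 from edgeR. *Itgb7* then missed the threshold, at an edgeR adjusted p of 0.0616. *Itgal* had 1025 ± 298 CPM in WT and 1238 ± 144 CPM in AS (SD, n = 3 each), and its log2 fold change of 0.27 was close to its SE of 0.22 (edgeR adjusted p = 0.494). *Itgae* had a log2 fold change of 0.81 with a SE of 0.64 (edgeR adjusted p = 0.474).

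*Itgam*, the alpha chain CD11b of Mac-1 on myeloid cells, had few counts, 71, 167 and 150 in the WT-dimtdT and 225, 175 and 197 in the AS-dimtdT libraries. Its groups did not overlap, and its log2 fold change was 0.45 (SE 0.37, edgeR adjusted p = 0.496). The second identifier with this symbol held 1, 10 and 11 counts (WT) and 21, 6 and 6 (AS), and a log2 fold change of 0.40 (SE 0.76, edgeR adjusted p = 0.785). Gencode M21 names it *Gm49368*. The low counts of *Itgam* have to be read with the annotation, since 68.7% of its merged exon bases lie in exons of this second gene on the same strand, and the program used by the authors (STAR) counts a read only where it falls on a single gene.

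Of the 8 identifiers 2 passed as higher in AS, where 2.21% of all 14637 genes tested did, and none passed as lower, where 6.42% did. The groups of 5 of the 8 did not overlap, AS above WT, as for 15% of all genes. Their median log2 fold change was 0.72, beside -0.02 over all genes. The marker lists of white blood cells did not all have the same direction. The 12 leukocyte markers summed to 7868 to 11912 CPM in the WT-dimtdT and 13154 to 13664 CPM in the AS-dimtdT libraries, and none of these had 0 counts in a group. All 12 had a positive log2 fold change, with a median of 0.52, and 0 of 12 passed with edgeR's quasi-likelihood test (6 of 12 were higher at an unadjusted p under 0.05, as were 10.3% of all genes, *Ptprc* among them with a log2 fold change of 0.60 and adjusted p = 0.0910). The 14 markers of monocytes, macrophages and dendritic cells summed to 5047 to 8557 CPM in WT and 11125 to 13775 CPM in AS, and 5 of 14 were higher in AS by the same test. The 12 markers of T and NK cells summed to 535 to 699 CPM in WT and 556 to 721 CPM in AS, and 6 of 12 had a positive log2 fold change, with a median of 0.08. The 7 markers of B cells summed to 553 to 1056 CPM in WT and 656 to 1075 CPM in AS, and 0 of 7 passed by edgeR (2 were higher at an unadjusted p under 0.05), with a median log2 fold change of 0.11. The markers of neutrophils and mast cells summed to 440 to 1847 CPM in WT and 466 to 826 CPM in AS, and 1 of the 7 tested had a positive log2 fold change, with a median of -0.55. The part of these cells in the values of the subunits was not tested. With the mean of the leukocyte markers as a covariate, the log2 fold change was 0.25 for *Itga4* and 1.28 for *Itgb7*, and no subunit passed. The 8 proximal tubule markers also differed, at 1178 to 4727 CPM in WT and 12.5 to 384 CPM in AS, and with their mean as a covariate the log2 fold changes of *Itga4* and *Itgb7* were 0.39 and 0.92 and no subunit passed. With that covariate only 1 of all genes tested passed. The summed markers of both covariates did not overlap between the genotypes, so that these fits can hardly part genotype from markers.

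**Figure D4:**
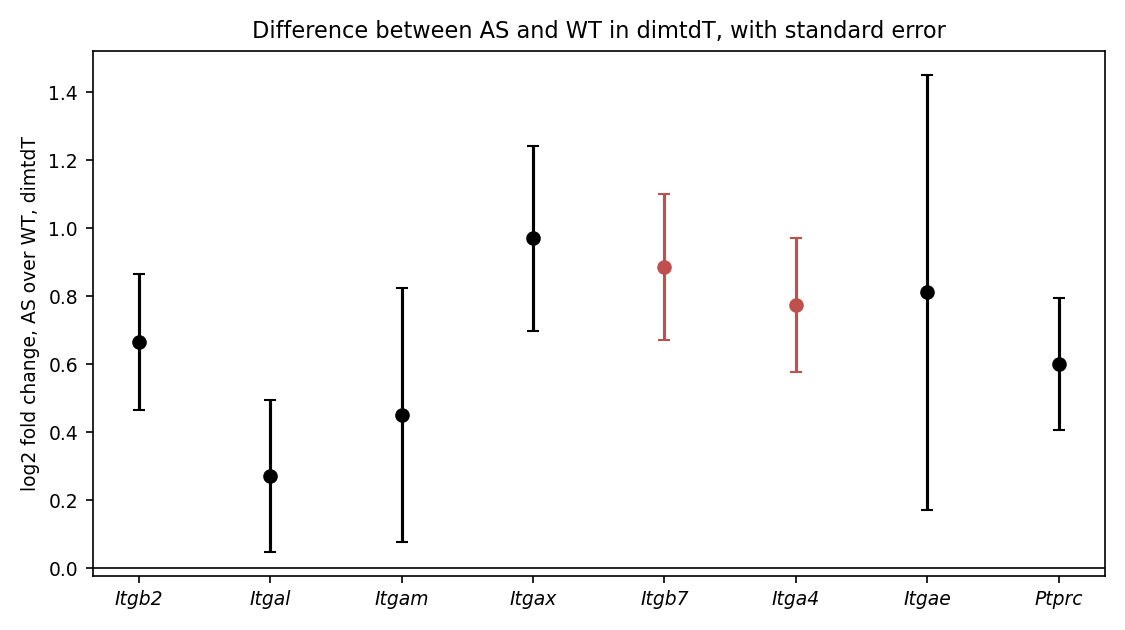
Log2 fold changes of AS over WT in the dimtdT libraries, with bars of 1 standard error, for the 7 subunits and *Ptprc*, with those past the threshold in red. All lie above 0, with *Itgb7* and *Itga4* past the threshold at 0.89 and 0.77, and *Itgal* falls below 0 with either marker covariate and *Itgam* with the proximal tubule markers.

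Relative to *Ptprc*, the genotypes overlapped in the dimtdT cells for 4 of the 7 subunits. *Itgb2* had 33.8 ± 1.17 counts per 100 counts of *Ptprc* in WT and 35.4 ± 2.92 in AS (SD, n = 3 each), and the genotypes overlapped. *Itgal* had 115 ± 6.59 in WT and 92.5 ± 11.5 in AS, and every AS library lay below every WT library. *Itga4* went from 14.4 ± 0.742 to 16.02 ± 0.838, with every AS library above every WT library, and *Itgb7* had 10.6 ± 4.45 in WT and 12.1 ± 0.894 in AS, with overlap. *Itgax* went from 4.13 ± 0.626 to 5.38 ± 0.851, and its lowest AS value of 4.805 lay just above its highest WT value of 4.800. With 3 against 3 libraries an exact permutation test cannot go below a p of 0.1. The share of all genes whose ratios to *Ptprc* do not overlap was not computed, so these values are a description. With the leukocyte markers as the denominator the genotypes overlapped for each of the 7. Within LFA-1, the counts of *Itgal* were 3.19 to 3.66 times those of *Itgb2* in WT and 2.41 to 2.82 times in AS, without overlap.

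In the brighttdT cells no subunit passed for AS over WT. Of the 4 tested, 0 had an adjusted p under 0.05 by edgeR, where 0.188% of all 14396 genes were higher and 0.264% lower. Without adjustment edgeR also gave 0 at p under 0.05, where 9.98% of all genes were higher and 11.9% lower, and 0 passed with DESeq2. *Itgb2* had the largest positive log2 fold change, 1.19 (SE 0.58, edgeR adjusted p = 0.261), on 11 to 67 counts per library. It was 1.91 without the WT-brighttdT library of replicate 3, and 0.85 to 1.91 with each library left out in turn. *Itgal* had -1.18 (SE 0.75, edgeR adjusted p = 0.394), which turned to 0.33 without the WT-brighttdT library of replicate 3. *Itga4* had 0.68 and *Itgb7* 0.21, with SEs of 0.38 and 0.42. *Itgae* did not pass the filter on low counts. The SEs of these 4 were 0.38 to 0.75, against 0.20 to 0.22 for the same genes in the dimtdT cells.

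Whether the difference between AS and WT depends on the subpopulation was tested as an interaction in a fit of all 12 libraries. None of the 5 subunits passed by edgeR or by DESeq2, where 2.96% of all 15084 genes passed by edgeR with a positive and 0.815% with a negative interaction. At an unadjusted p under 0.05 edgeR gave 0 of the 5, and 11.5% and 6.95% of all genes. The log2 interaction, positive where AS over WT was higher in the brighttdT cells, was 0.56 for *Itgb2* (SE 0.53, and 0.089 to 1.32 with each library left out in turn), -1.41 for *Itgal* (0.81), -0.65 for *Itgb7* (0.39), -0.05 for *Itga4* (0.39) and -0.06 for *Itgae* (2.24). With each library left out in turn the direction turned for 3 of these, the values going up to 0.14 for *Itgal*, 0.069 for *Itga4* and 1.39 for *Itgae*, the first and the last without the WT-brighttdT library of replicate 3, and for *Itgb7* they were -0.88 to -0.38. It was 0.85 for *Itgb1* (SE 0.25, edgeR adjusted p = 0.0810). The difference between subpopulations in AS is therefore not shown to differ from that in WT for any of these subunits.

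Levels of different genes can be compared per length only. By the deposited RPKM (counts per kilobase of gene length and M counts), the 6 dimtdT libraries averaged 49.3 ± 11.9 for *Itgal*, 43.0 ± 13.4 for *Itgb2*, 40.8 ± 15.7 for *Itgb7*, 9.33 ± 3.23 for *Itga4*, 8.87 ± 3.86 for *Itgax*, 0.762 ± 0.225 for *Itgam* and 0.330 ± 0.176 for *Itgae* (SD, n = 6). The first 3 overlapped with each other, *Itga4* overlapped with *Itgax* and *Itgam* with *Itgae*, and the steps between these sets were apart in every library. In the brighttdT libraries *Itgb7* stood first, at 1.41 ± 0.304 RPKM (SD, n = 6), above every value of the other 4. *Itga4* followed at 0.455 ± 0.168, then *Itgb2* and *Itgal* at 0.243 ± 0.151 and 0.243 ± 0.265, which overlapped with it, and *Itgae* at 0.0356 ± 0.0303. By genotype, *Itgb2* averaged 0.147 in WT and 0.340 in AS, and *Itgal* 0.336 in WT and 0.150 in AS. The WT mean of *Itgal* holds the library of replicate 3 at 0.776, beside 0.0782 to 0.198 in the other brighttdT libraries.

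The length behind these RPKM values shifts the comparison. For 90.2% of 17778 genes the deposited length equals the sum of the exon records of all transcripts in Gencode M21 plus 1 base for each record, so that exons shared by transcripts are counted repeatedly. It is 3.50 times the merged exon length for *Itgal*, 3.42 times for *Itgam*, 2.96 times for *Itgb2* and 1.12 times for *Itgb7*. In CPM per kilobase of merged exons, *Itgal* had 173 ± 39.0, *Itgb2* 127 ± 38.6 and *Itgb7* 45.6 ± 17.0 (SD, n = 6 dimtdT libraries), and *Itgb7* then lay below *Itgb2* in 6 of 6 libraries without overlap. The order of the 7 was the same, and *Itgax* was 4.38 times as high as *Itgam*, where by RPKM it was 11.6 times as high. Counted only over the 1574 exon bases that *Itgam* does not share with the second gene, *Itgam* had 8.33 ± 2.44 and *Itgax* 11.4 ± 4.85 CPM per kilobase, which overlapped. In the brighttdT libraries the merged length put the mean of *Itgal* above that of *Itgb2* and that of *Itga4* below it, with *Itgb7* first but overlapping with *Itgal*, above which it lay in 5 of 6 libraries. *Itgal* lay above *Itgb2* in 4 of 6 libraries, and *Itgb2* above *Itga4* in 3 of 6. The mean of *Itgal*, 0.848, holds the WT-brighttdT library of replicate 3 at 2.70, beside 0.261 to 0.650 in the others.

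**Figure D5:**
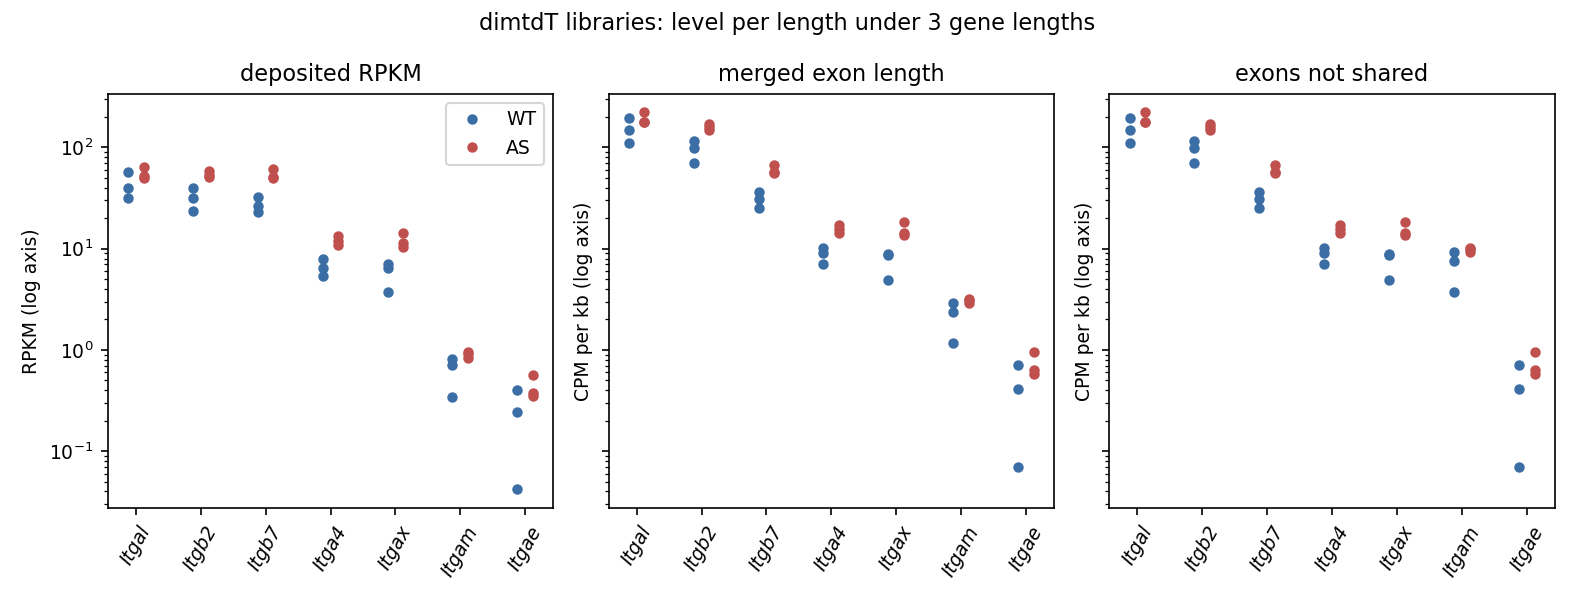
Level per length of the 7 subunits in the 6 dimtdT libraries on log axes, by the deposited RPKM, per kilobase of merged exons and per kilobase of exons not shared with another gene on the same strand. *Itgal* is highest and *Itgae* lowest under each length, and the gap between *Itgax* and *Itgam* closes from 11.6 times to 1.37 times.

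The genes of *Spi1*, which encodes PU.1, and of RUNX factors were measured with the other regulators of these genes. Of 8 such factors, 6 had enough counts within the brighttdT libraries to pass the filter there. Of these 6, 4 were lower in the WT-brighttdT than in the WT-dimtdT cells, where 11.5% of all genes were lower, and in AS 3 were lower, where 26.5% were, and 1 was higher, where 28.6% were. The gene that was higher in AS was *Irf8*, a factor of monocytes and dendritic cells, with a log2 fold change of 0.79 (edgeR adjusted p = 0.0394), against -0.77 in WT (edgeR adjusted p = 0.0488). *Runx1* had log2 fold changes of -4.17 in WT and -4.65 in AS, and *Ikzf1*, a factor of lymphoid development, -5.93 and -5.10. *Spi1* and *Runx3* passed the filter through the dimtdT libraries only, which favours a lower brighttdT value, and are not counted (*Spi1* had 65.4 ± 23.4 CPM in the WT-dimtdT and 0.339 ± 0.239 CPM in the WT-brighttdT cells, SD, n = 3 each). In the AS-dimtdT cells *Runx3* was higher than in WT, with a log2 fold change of 1.12 (SE 0.21, edgeR adjusted p = 0.0244), and the other 7 did not pass. Of all genes tested for AS over WT in the dimtdT cells, 2.21% were higher and 6.42% lower. *Irf8* differed in its genotype effect between the subpopulations (log2 interaction 1.62, edgeR adjusted p = 0.0421).

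The ligands of the subunits differed in both directions. Of 16 ligands listed 11 could be tested for brighttdT over dimtdT, of which 5 were higher and 2 lower in WT, and 6 higher and 2 lower in AS. Of all genes tested 13.8% were higher and 11.5% lower in WT, and 28.6% higher and 26.5% lower in AS. *Icam2*, a ligand of LFA-1 on resting endothelium, rose from 79.7 ± 17.1 to 535 ± 139 CPM in WT (SD, n = 3 each) and from 30.9 ± 3.09 to 566 ± 154 CPM in AS, with log2 fold changes of 2.75 and 4.197. *Icam1*, the inducible ligand of LFA-1 and Mac-1, had log2 fold changes of 1.85 (edgeR adjusted p = 0.0191) and 1.94 (edgeR adjusted p = 1.35e-05). *Vcam1*, a ligand of the *Itga4* integrins, had 3.64 in AS (edgeR adjusted p = 1.00e-05) and 1.72 in WT, where it did not pass (edgeR adjusted p = 0.0520). The junction proteins *Jam3*, *Jam2* and *F11r*, known as counter-receptors of Mac-1, of *Itga4* with *Itgb1* and of LFA-1, were higher in the brighttdT cells of both genotypes. Fibronectin (*Fn1*) and complement *C3* were lower, *Fn1* by log2 fold changes of -5.39 and -7.23 and *C3* by -5.34 and -6.31.

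In the AS-dimtdT cells 3 of 12 ligands tested were lower than in WT and none higher, where 6.42% of all genes were lower and 2.21% higher. Markers of other cell types were also lower in these libraries, 8 of 13 endothelial markers tested with a median log2 fold change of -2.22, 4 of 8 proximal tubule markers with a median of -4.25 and 3 of 6 podocyte markers (with 1 higher) with a median of -1.80, and their part in the values of the ligands was not tested. *Icam2* fell by 1.41 on the log2 scale (edgeR adjusted p = 0.0219), *Jam3* by 2.58 (edgeR adjusted p = 0.0296) and *Cdh1*, the E-cadherin that CD103 binds, by 2.83 (edgeR adjusted p = 0.0142). *Icam1* had a log2 fold change of 0.93 (edgeR adjusted p = 0.137) and *Vcam1* -0.24 (edgeR adjusted p = 0.834). In the brighttdT cells none of 11 passed, and *Vcam1* came nearest, with 6.95 ± 1.12 CPM in WT and 22.6 ± 4.98 CPM in AS (SD, n = 3 each, log2 fold change 1.70, adjusted p = 0.0516 from edgeR).

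Of 15 inside-out activators and adaptors that bind integrin tails, 12 passed the filter within the brighttdT libraries. Of these 12, 6 were lower and 1 higher in the WT-brighttdT than in the WT-dimtdT cells, where 11.5% and 13.8% of all genes were, and in AS 8 were lower and 1 higher, where 26.5% and 28.6% were. *Apbb1ip* (RIAM), which brings talin to the integrin, and the adaptor *Fyb* passed the filter through the dimtdT libraries only and are not counted. The gene that was higher was *Fermt2*, the kindlin of cells other than blood cells, at 2.70 and 4.81, while *Fermt3*, the kindlin of blood cells, had -1.51 (edgeR adjusted p = 0.0104) and -2.31. In the AS-dimtdT cells *Fermt3* rose by a log2 fold change of 1.14 (edgeR adjusted p = 0.0268) and talin, *Tln1*, by 1.06 (edgeR adjusted p = 0.0229), while *Fermt2* fell by 1.91 on the log2 scale (edgeR adjusted p = 0.0197). The other 12 of 15 tested did not pass, and of all genes 2.21% were higher and 6.42% lower.

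Of the genes of outside-in signalling, the kinases and adaptors that act once a leukocyte integrin is bound, 8 passed the filter within the brighttdT libraries. Of these 8, 6 were lower in the brighttdT cells of each genotype, where 11.5% of all genes were lower in WT and 26.5% in AS. *Syk* had log2 fold changes of -7.16 in WT and -6.96 in AS, and *Fcer1g*, an adaptor of immune receptors, -6.93 and -7.06. *Vav1* and *Fgr* passed the filter through the dimtdT libraries only and are not counted. In the AS-dimtdT cells the kinase *Syk* rose by 1.10 on the log2 scale (edgeR adjusted p = 0.0390). *Ptk2b* had a log2 interaction of -2.66 (edgeR adjusted p = 0.0308). Of the inhibitors of integrin activation, *Cytip*, which binds an activator of LFA-1, had log2 fold changes of brighttdT over dimtdT of -7.29 and -7.51, *Flna*, which competes with talin for the tail, -1.43 and -1.60, and *Sipa1*, which switches off Rap GTPases, 1.53 and 1.49. In the AS-dimtdT cells *Flna* rose by 0.78 on the log2 scale (edgeR adjusted p = 0.0334), and the other 5 tested did not pass. Among all genes in this comparison of AS with WT, 2.21% were higher and 6.42% lower.

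Among the related chains, *Itga6* and *Itga9* were higher in the brighttdT cells of both genotypes, at log2 fold changes of 2.07 and 3.84 for *Itga6*, a laminin-binding chain, and of 2.55 and 3.98 for *Itga9*. *Itga5*, of the fibronectin receptor, and *Itgav* were lower in the AS-brighttdT cells, at -0.72 and -0.65. In the AS-dimtdT cells *Itga5* rose by 0.95 on the log2 scale (edgeR adjusted p = 0.0411) and *Itga6* fell by 1.22 (edgeR adjusted p = 0.0296).

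The genes nearest in pattern to each subunit over the 6 dimtdT libraries were found by the root mean square difference of centred log2 CPM, among 11621 genes with at least 10 counts in each. For *Itgal* these were *Sf3b1*, *Gm43774*, *Cmip*, *Gmip* and *Ccdc12*, at 0.04 to 0.08, beside a median of 0.52 over all genes. For *Itgb2* they included *Msn*, *Gpcpd1*, *Fam49b* and *Eif2s3y*, at 0.07 to 0.08 with a median of 0.56. For *Itga4* they were *Lrrfip2*, *Laptm5*, a lysosomal gene of blood cells, *Usp34*, *Ikbkb* and *Farsa*, at 0.06 to 0.07, and for *Itgb7* they were *Man2b2*, *Phf14*, *Rpl13*, *Reep5* and *Itga5*, at 0.08 to 0.11. *Itgax* was nearest to *Gcnt2*, *Pygl*, *Elmo1*, *Coq6* and *Ift140* at 0.07 to 0.11, and *Itgam* to *Hmga1*, *Slc11a1*, a transporter gene of macrophages, *Taf4b*, *Arf3* and *Gab1* at 0.06 to 0.10. No subunit was among the 5 nearest of another. The 6 libraries share their depth and the spread between these mice, and nothing follows from the likeness.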

How the data were processed

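RNA-seq of dimtdT and brighttdT GEC from 3 WT and 3 AS mice was analysed. STAR 2.6.0c (GRCm38.p5, Gencode M16) was the authors' aligner and counter, and the deposited values are raw counts per gene and RPKM; the strand counted is not given in the sources used here. The deposited tables also hold log2 fold changes, p-values and scores of the authors' own edgeR comparison, which were not used. ERCC spike-ins, 92 per table, were left out. Counts were tested with edgeR 4.0.16 in R 4.3.3 (TMM, filterByExpr, estimateDisp, glmQLFit in its version 4 form, glmQLFTest, Benjamini-Hochberg over all genes tested, threshold 0.05), AS over WT within a subpopulation on its own table and brighttdT over dimtdT on the 15768 genes in both. edgeR's version 3 form was run first, and no subunit passed it for AS over WT; the version 4 form was taken after those values had been seen, to follow earlier processing of these data. It and the robust fits are given as alternatives. The self-test on simulated counts was passed. The dimtdT and brighttdT libraries of a mouse share its number, and their deviations from the group means correlated at 0.329, 0.247 and 0.111 in WT and 0.0760, 0.374 and 0.160 in AS. Coordinates and lengths are from Gencode M21. Named are the 7 subunits, *Itgb1*, *Ptprc*, the listed ligands, per pathway role up to the 5 passed genes with the smallest adjusted p, and the 5 genes nearest each subunit; *Itgad*, *S100a9*, *Csf3r*, *Lcp2*, and *Fermt3* and *Irf8* in brighttdT over dimtdT were looked up besides. The members and lists were chosen with earlier results of these data known. The alternatives tried were DESeq2 1.42.0, edgeR's likelihood ratio test, RLE size factors, no scaling beyond library size, no filter, a replicate block, marker covariates, all 12 libraries in one fit and each library left out. Results for some genes that the rule names are not reported here.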

Additional observations from a re-analysis of the deposited data

How the results depend on the processing

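For AS over WT in the dimtdT cells the number of subunits that passed, 2, was 0 in 10 of 18 alternatives, 1 in 2, 2 in 3 and 3 in 3. It was 1 with RLE normalization, and 0 without the filter, with a replicate block, with the leukocyte or the proximal tubule markers as a covariate, and with edgeR's version 3 fit, robust or not. Leaving out each library gave 0 to 3, with 0 without replicate 2 of WT or any of the 3 AS libraries. Without AS replicate 1 or 3, 0 and 1 of all genes tested passed, and with the proximal tubule covariate 1. The cause was not tested. The numbers shared by WT and AS mice are numbers only, so the block there pairs nothing. For brighttdT over dimtdT no subunit passed in WT or AS, a count of 0, with the leukocyte covariate, which separates the same groups, and the block with the mouse changed no call. Of 490 values of single subunits, 433 kept their side and direction, 31 lost and 4 gained a call, and 22 reversed. The reversed values for AS over WT in the dimtdT cells were -0.51 (leukocyte covariate) and -0.086 (proximal tubule covariate) for *Itgal*, -0.035 (proximal tubule covariate) for *Itgam*, and -0.60, -0.93, -0.08 and -0.41 for the second *Itgam* identifier, with the covariates and without WT replicate 1 or AS replicate 1. In the brighttdT cells they were -0.058 for *Itgb7* and 0.33 for *Itgal*, without WT replicate 3. *Itgb2* turned to 7.08 for brighttdT over dimtdT in AS with the leukocyte covariate (adjusted p = 0.958 from edgeR). For the interaction they were 0.17 with the proximal tubule covariate and 0.44, 1.39, 0.21 and 0.29 with a library left out for *Itgae*, 0.13 with that covariate and 0.07, 0.05, 0.069, 0.04 and 0.03 with a library left out for *Itga4*, and 0.14 for *Itgal* without the WT-brighttdT replicate 3. The ranges over leaving out one library reached up to 0.79 for the second *Itgam* identifier, from -0.058 to 0.45 for *Itgb7* and from -1.61 to 0.33 for *Itgal* in the brighttdT cells, and for the interaction down to -0.80 for *Itgae*, -0.27 for *Itga4* and -1.84 for *Itgal*. For the *Itgb2* interaction the lowest, 0.089, was without AS-brighttdT replicate 2 and the highest, 1.32, without WT-brighttdT replicate 3. Library sizes alone moved the median interaction of all genes by -0.16. The brighttdT values of the subunits rest on 1 to 266 counts per library, which limits what could be detected there.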
